A study of Caenorhabditis elegans with 18 samples.

Results

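The libraries described here are the no-antibody controls of an iCLIP study in the nematode Caenorhabditis elegans: 6 of the 18 deposited libraries, chosen because their labels say that no antibody was used. iCLIP cross-links protein and RNA in living animals and recovers the RNA with an immunoprecipitated protein. In these 6 libraries the FLAG antibody was left off the beads while all later steps were kept. There were 3 controls from oogenic and 3 from spermatogenic animals, so what they hold is the RNA that came through the procedure without selection for the tagged protein. Oogenic animals were early adult hermaphrodites that make oocytes, and spermatogenic animals were early adult hermaphrodites of the fem-3(gf) genotype (allele q22, a temperature-sensitive gain of function), whose germline makes only sperm at the restrictive temperature. Both were kept at 25° from the first larval stage, and both had the somatic tissues of a hermaphrodite. The strains of the study carry a FLAG-tagged transgene of FBF-1 or FBF-2 in place of the endogenous gene, and the labels do not say from which of these strains each control came. Among the 26709 genes of the count table, 16446 had a count in any control and 3137 passed the count minimum and were tested.

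FBF-1 and FBF-2 are nearly identical PUF proteins that maintain germline stem cells and also act in spermatogenesis. They bind mRNAs mainly in the 3′ untranslated region and are known mostly as repressors, although they can also activate targets. Sperm formation in C. elegans relies on a large set of late-expressed genes, among them those for the major sperm proteins (MSPs), which form the cytoskeleton that moves the crawling sperm. Oocytes instead load yolk made by the intestine, store maternal mRNAs and prepare the components of the eggshell. Any control library made from whole animals also contains RNA of muscle, intestine, hypodermis and neurons, together with ribosomal RNA (rRNA), tRNA and mitochondrial RNA.

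Oogenic controls held 141368, 283777 and 139129 counts on genes, and spermatogenic controls held 108888, 59621 and 145625. The 12 FBF libraries of the series ranged from 18749 to 1833483. Between 7566 and 11701 genes had a count in each control. At these depths a floor of 3 counts corresponded to a level of 25.9 to 104 per library, where level stands for CPM with the counts on nuclear protein-coding genes as the total. Library differences within a gender were small beside those between genders: the chi-square per degree of freedom over genes was 1.22 to 1.42 between oogenic controls, 1.36 to 1.64 between spermatogenic controls and 9.33 to 19.6 across the genders. Over the nuclear protein-coding genes tested, Spearman correlations were 0.761 to 0.812 between oogenic controls and 0.699 to 0.752 between spermatogenic controls. Across the genders they were 0.490 to 0.581. Because the replicates of each gender differed by more than sampling noise, all 6 were kept as separate samples, although the labels do not say that they came from separate cultures, and p-values then measure only the spread between these libraries. All oogenic controls were sequenced in lane 1 and all spermatogenic controls in lane 3, so lane and gender cannot be told apart in any comparison between the controls. Reads that the counting step left out as ambiguous between genes made up 0.568 to 0.874% in oogenic and 1.52 to 1.93% in spermatogenic controls, against 0.614 to 0.931% in the FBF libraries.

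rRNA took the largest share of the oogenic controls and a smaller share of the spermatogenic controls. Its share of counts on genes was 43.2%, 46.0% and 47.7% in the oogenic and 24.6%, 28.3% and 26.3% in the spermatogenic libraries, a difference of -19.2 percentage points between the means (45.6 ± 2.3 and 26.4 ± 1.86%, SD, n = 3 each). Nuclear protein-coding genes went the other way, with 42.9%, 40.7% and 39.8% in oogenic and 53.4%, 48.4% and 52.0% in spermatogenic controls. Mitochondrial RNA rose from 3.88 ± 0.149% to 9.89 ± 0.61% (SD, n = 3). The 3 libraries of either gender did not overlap for rRNA, protein-coding or mitochondrial RNA, and each exact two-sided permutation test gave p = 0.1 (0.117 after Benjamini-Hochberg adjustment over 7 classes), which is the smallest p that 3 libraries against 3 allow. tRNA shares were 4.69%, 4.75% and 4.23% in oogenic and 4.83%, 7.76% and 5.35% in spermatogenic controls, where spermatogenic replicate 2 stood above the rest. In the 12 FBF libraries rRNA took 11.9 to 37.8%, mitochondrial RNA 1.44 to 3.12% and protein-coding genes 51.5 to 80.0%. By gender, mean rRNA shares for FBF-1 and FBF-2 were 22.7 and 31.9% in oogenic and 13.1 and 14.3% in spermatogenic libraries. Mean protein-coding shares were 68.1 and 57.0% against 78.4 and 77.4%. Mean mitochondrial shares were 1.78 and 2.95% against 1.68 and 1.74%, so the mitochondrial rise was not seen with antibody.

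**Figure D1:**
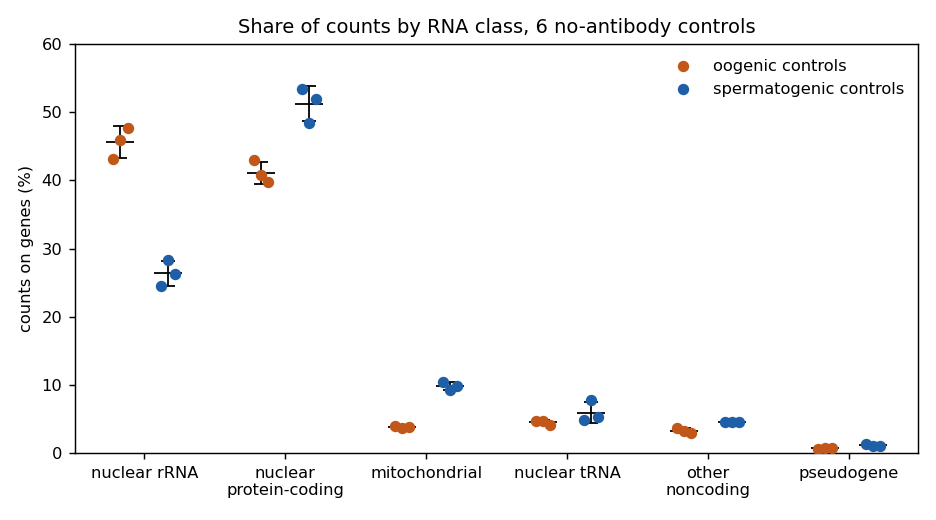
Share of counts on genes (%) in each of the 6 control libraries, by RNA class, with points for libraries and bars for the mean and SD of each gender. The oogenic libraries lie between 43.2 and 47.7% for rRNA and the spermatogenic libraries between 24.6 and 28.3%, while the mitochondrial shares are 3.79 to 4.05% and 9.28 to 10.5%.

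The rRNA difference came from a few of the 6 rRNA genes tested. In edgeR 3 were lower and 1 was higher in spermatogenic controls, at an adjusted p below 0.01 and more than 2-fold (3 and 0 in DESeq2). The 26S gene rrn-3.1 held 25.1%, 26.3% and 28.2% of counts in oogenic and 23.5%, 26.6% and 24.9% in spermatogenic controls, and these ranges overlapped (log2 difference, spermatogenic over oogenic, -0.36, adjusted p = 0.016 by edgeR quasi-likelihood, Benjamini-Hochberg adjusted). In contrast, the 18S gene rrn-1.2 had 15042, 31730 and 15869 counts in oogenic controls and 0 in every spermatogenic control, and its copy rrn-1.1 had 4842, 11175 and 5326 counts against 0. A further 26S copy, rrn-3.56, went from 4668, 10467 and 4890 counts to 302, 137 and 357. These genes are near-identical repeats and reads mapping to several places were removed, so how their reads were divided between copies is uncertain. In the spermatogenic FBF libraries rrn-1.2 had 17869 to 40007 counts and rrn-1.1 had 6595 to 13031, so these genes were at 0 in the 3 spermatogenic controls and abundant in the FBF libraries of the same gender.

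Complete loss of a gene's counts was not limited to 18S rRNA. Altogether 32 genes with at least 50 counts over the oogenic controls had 0 counts in all 3 spermatogenic controls, and they held 15.99% of all oogenic control counts. They comprised 2 rRNA genes, 19 tRNA genes, 6 protein-coding genes and 5 other noncoding genes. All 32 had counts in each of the 6 spermatogenic FBF libraries, with a lowest value of 15. In the opposite direction 3 genes met the same rule (F58A6.9, R09E10.6 and anr-54). The tRNA gene C16D9.t2, for example, had 241, 529 and 189 counts in oogenic controls, 0 in spermatogenic controls and 379 to 1123 in the spermatogenic FBF libraries. Similarly, T02G6.t1 had 160, 351 and 118 counts in oogenic controls and 170 to 348 in the spermatogenic FBF libraries. The protein-coding pair pud-1.2 and pud-2.2 (chosen after their values were seen) encode proteins named for their rise in a daf-2 mutant, and each has a duplicate gene. For pud-1.2 there were 38, 83 and 32 counts in oogenic controls, 0 in spermatogenic controls (at least 35.8-fold lower, with a floor of 3 counts over the group) and 89 to 205 in the spermatogenic FBF libraries. For pud-2.2 there were 38, 76 and 29 counts, 0, and 105 to 217. The duplicates pud-1.1 and pud-2.1 had at most 1 count in any library. Many of the 32 genes belong to families of similar copies, and the part of read assignment among copies in these zeros was not tested. Leaving out every gene at 0 throughout a gender cut the rRNA difference to -10.1 percentage points and the protein-coding difference to 1.60.

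Across all 3137 genes tested, 197 were called higher in spermatogenic controls (6.28% of those tested) and 211 higher in oogenic controls (6.73%), at an adjusted p below 0.01 and a change of more than 2-fold. Among 127 tRNA genes, which decode the genetic code and occur in families of identical copies, 17 rose and 68 fell in spermatogenic controls, with a median log2 difference of -1.96 beside -0.02 for all genes tested. Of these 127 genes, 26 were at 0 in all spermatogenic controls and passed the count minimum only through their oogenic counts. Reads mapping to several places were removed, and the part of read assignment among tRNA copies was not tested in either direction. F56F4.t2 went against the direction of the median, with 100, 188 and 88 counts in oogenic and 2201, 1851 and 2998 in spermatogenic controls. It rose from 0.0633 to 0.0707% of counts to 2.02, 3.10 and 2.06% (log2 difference 4.89). This gene decided the direction of the class. With it, the tRNA shares of the genders did not overlap (difference 1.42 percentage points, exact permutation p = 0.1), and without it they were 4.16 to 4.68% in oogenic and 2.81 to 4.65% in spermatogenic controls, a difference of -0.907.

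Mitochondrial RNA rose without exception among its called genes, 18 of 34 tested, with a median log2 difference of 1.35. Of all genes tested 6.28% rose. The mitochondrial genome encodes the 2 rRNAs of the organelle's own ribosome, its tRNAs and 12 proteins of the respiratory chain. MTCE.33, a mitochondrial rRNA gene, had 2930, 6213 and 3188 counts in oogenic and 7026, 3318 and 8650 in spermatogenic controls, or 2.07 to 2.29% against 5.57 to 6.45% of counts (log2 difference 1.18, adjusted p = 3.5e-11 by edgeR quasi-likelihood, Benjamini-Hochberg adjusted). Both mitochondrial rRNA genes together rose from 2.75 ± 0.118% to 7.099 ± 0.485% (SD, n = 3). The mitochondrial tRNAs changed more: 17 of 20 rose, with a median of 2.41. Of the 12 mitochondrial mRNAs none was called by edgeR or DESeq2, and 8 were higher in spermatogenic controls at an unadjusted p under 0.05 in edgeR. All 12 had positive differences, between 0.09 and 0.91 with a median of 0.42, and ctc-1, which encodes a subunit of cytochrome c oxidase, was at 0.44. As shares of counts, mitochondrial tRNA went from 0.228 ± 0.0647% to 1.28 ± 0.0247% and mitochondrial mRNA from 0.906 ± 0.189% to 1.50 ± 0.124% (SD, n = 3), so the organelle's rRNA made up most of its added share.

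Small nuclear and nucleolar RNAs differed in direction from each other. Of all genes tested, 6.28% rose and 6.73% fell. The 22 snRNA genes tested, which serve in pre-mRNA splicing, had 13 members that fell and none that rose in spermatogenic controls, with a median of -2.59. Of these 22, 5 were at 0 in all spermatogenic controls and passed the count minimum only through their oogenic counts. Their median was -0.79 in the FBF libraries. Reads mapping to several places were removed, and the part of read assignment among similar copies was not tested. In the 85 snoRNA genes, which guide the modification of rRNA, 18 rose and 6 fell (median 0.34). A split by annotated length, chosen after the values were seen and given as a description, placed 17 of these 18 among the 43 snoRNAs of at most 100 bases and all 6 that fell among the 42 longer ones. C08D8.3, a snoRNA of 80 bases, had 95, 150 and 61 counts in oogenic and 177, 89 and 257 in spermatogenic controls (log2 difference 1.31). F47G4.9 went from 78, 117 and 47 counts to 141, 78 and 208 (1.37). M163.13, annotated as a snRNA, had a smaller difference of 0.58 that was not called. The noncoding RNA F26H11.9 fell from 333, 703 and 267 counts to 28, 17 and 39 (-3.35). As levels, the libraries of the genders did not overlap for C08D8.3, F47G4.9 or F26H11.9.

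Of 2743 nuclear protein-coding genes tested, 241 were called (8.79%). Among them 131 were higher in spermatogenic controls (4.78%) and 110 higher in oogenic controls (4.01%). The median log2 difference was 3.94 among the former and -2.42 among the latter, beside -0.03 for all protein-coding genes tested. Of the 131, 13 were at 0 in every oogenic control, and with these at their lower bound the median was 3.83. Of the 110, 10 were at 0 in every spermatogenic control. Levels in the 3 libraries of each gender did not overlap for 130 of the 131 and 109 of the 110. Non-overlap was found in 342 of all 2743 genes with spermatogenic libraries higher (12.5%) and in 474 with oogenic libraries higher (17.3%). Scaling by total counts instead of by TMM (trimmed mean of M values) moved the median of all genes to 0.26 and the calls to 180 and 76, so that 70.3% rather than 54.4% of calls were spermatogenic. Calls also depended on the minimum count, since at a mean of 20 counts only 736 genes of all classes were tested and 13 protein-coding genes were higher in spermatogenic controls and 38 in oogenic controls.

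**Figure D2:**
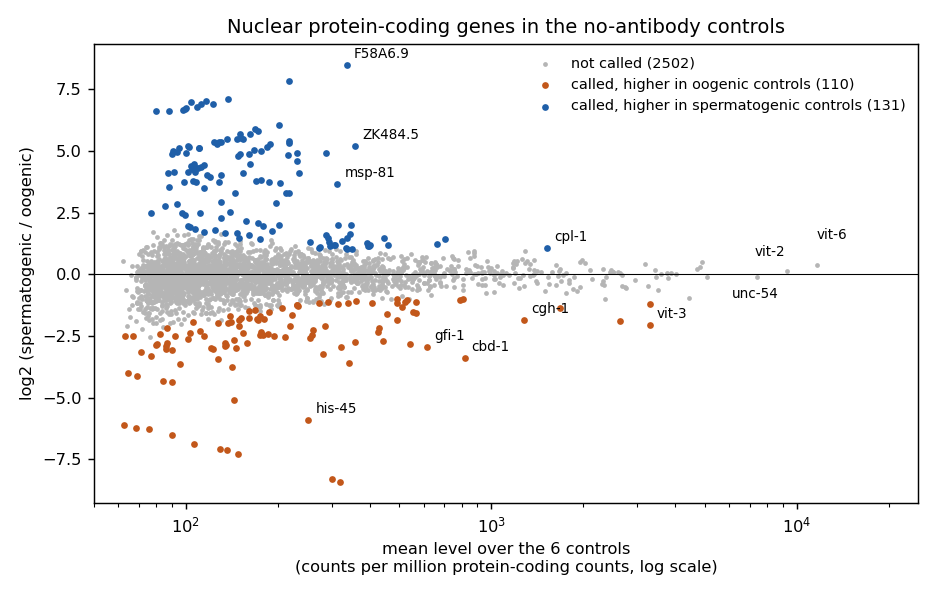
Log2 difference between spermatogenic and oogenic controls against the mean level of each nuclear protein-coding gene (logarithmic axis), with 1 point for each of 2743 genes and called genes in color. The 131 genes higher in spermatogenic controls lie mostly at low levels, and the 110 higher in oogenic controls extend to more abundant genes.

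Among the most abundant protein-coding RNAs of the controls, some differed little between the genders and others were lower in spermatogenic controls. Of the 8 genes with the highest levels in oogenic controls, vit-3 (log2 difference -2.06) and K08D12.6 (-1.19) fell, and their counts are given with the other genes that fell. Per kilobase of annotated exon, levels over the 6 libraries averaged 7705 for far-2, a fatty acid and retinol binding protein, which was the highest value of the protein-coding genes tested. The value was 4066 for osm-11, a secreted ligand of the Notch pathway, 4056 for the collagen gene col-20, 3342 for F46H5.3 and 3170.5 for the actin gene act-4. Genes outside the naming rule lay between these, such as grd-5 at 6221, col-119 at 4448 and Y82E9BR.3 at 4304. The major body-wall myosin gene unc-54 had 459, 920 and 430 counts in oogenic and 422, 202 and 526 in spermatogenic controls, a log2 difference of -0.09 that turned to 0.19 when libraries were scaled by total counts. As levels, the 3 oogenic libraries lay just above the 3 spermatogenic libraries for unc-54, and the genders overlapped for act-4. The counts of act-4 were 302, 592 and 327 counts against 299, 135 and 350 (-0.10, and 0.18 by total counts). Small positive differences were seen for far-2 (0.22), osm-11 (0.31) and F46H5.3 (0.49), and col-20 was at 0.03. F46H5.3 had an adjusted p of 0.0059 by edgeR quasi-likelihood, Benjamini-Hochberg adjusted, and stayed below the 2-fold limit.

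RNA of sperm genes was much higher in spermatogenic controls. The 31 MSP genes in the table had a summed level of 285 to 428 in oogenic and 4182 to 5097 in spermatogenic controls, a ratio of 13.1, and in whole-animal libraries fewer cells of a type and less RNA per cell cannot be told apart. All 14 MSP genes that passed the count minimum rose, with log2 differences of 2.29 to 5.49 (median 4.07), where 4.78% of all protein-coding genes tested did so. Because a gene near 0 in oogenic controls could reach the minimum only through its spermatogenic counts, these 14 are not the whole family, and 5 of the 31 had no count in any oogenic control. For msp-81 the counts were 1, 7 and 2 in oogenic and 29, 24 and 33 in spermatogenic controls (log2 difference 3.65). Its levels did not overlap, which was a condition of a rule that named it. msp-76 had 2, 3 and 1 against 19, 9 and 31 (3.75). MSP genes are near-identical in sequence, so the assignment of reads to a single copy is uncertain, while the family sum is less exposed to it.

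A list of 50 other genes for sperm formation and function went the same way, from a summed level of 461 to 519 to one of 5375 to 5458, a ratio of 11.05. Of its 12 members that passed the minimum, 10 rose and none fell, where 4.78% of all protein-coding genes tested rose. Their median was 3.94, or 3.83 with genes at 0 set to their lower bound. As with the MSP genes, members near 0 in oogenic controls could pass only through their spermatogenic counts. Of the 50, 22 had no oogenic count. ssq-2, of a sperm-specific family, had 0, 4 and 2 counts in oogenic and 21, 12 and 42 in spermatogenic controls (4.09). ssp-10, of another sperm-specific family, had 0, 2 and 0 against 21, 8 and 26 (5.06). spe-15, which encodes a myosin VI that sorts cell contents during sperm formation, had 2, 3 and 1 against 19, 7 and 17 (3.31). The Argonaute genes alg-3 and alg-4, which act with small RNAs in spermatogenesis (chosen after their values were seen), had 0, 0 and 0 against 9, 7 and 15 counts and 0, 0 and 1 against 13, 7 and 25 counts. Libraries of the genders did not overlap for any of these genes, which was a condition of a rule that named ssq-2 and spe-15. Outside the lists, gipc-2, a PDZ-domain protein gene, had 3, 4 and 2 against 24, 10 and 30 counts (3.32), and F49C12.15 had 0, 2 and 4 against 12, 16 and 28 (3.70). Thinned to the depth of the shallowest control, msp-81, gipc-2 and F49C12.15 were no longer called.

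The extreme of this direction was F58A6.9, on chromosome II at 5158641 to 5158874 in the Ensembl annotation of WBcel235 (the build used by the authors is not given in the sources used here). It had 0 counts in every oogenic control and 47, 18 and 44 in spermatogenic controls, at least 51.8-fold higher with a floor of 3 counts over the oogenic group. ZK484.5 had 1, 1 and 2 counts against 36, 23 and 51 (log2 difference 5.20, SE 0.44, adjusted p = 2.3e-13 by edgeR quasi-likelihood, Benjamini-Hochberg adjusted). R09E10.6 had 0 in oogenic and 25, 13 and 32 in spermatogenic controls, at least 33.2-fold higher. All 3 genes were detected in every spermatogenic control.

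RNA of oocyte, eggshell and maternal genes was lower in spermatogenic controls. The 38 listed genes had a summed level of 14148 to 14662 in oogenic and 5749 to 7108 in spermatogenic controls, a ratio of 0.445. Of 30 that passed the minimum, 24 fell and none rose, with a median of -2.38 and a range from -4.10 to 0.46, where 4.01% of all protein-coding genes tested fell. A gene near 0 in spermatogenic controls could reach the minimum only through its oogenic counts, so these 30 are not the whole list. When libraries were scaled by total counts 18 of them fell, and in DESeq2 14 fell. cbd-1, a chitin-binding protein gene of the eggshell (chromosome IV, 11372991 to 11377627 in WBcel235), had 77, 169 and 97 counts in oogenic and 10, 4 and 8 in spermatogenic controls (log2 difference -3.39). cpg-2, for a chondroitin proteoglycan of the eggshell, had 63, 103 and 52 against 8, 3 and 10 (-2.81). The maternal mRNA pos-1, which encodes a zinc finger protein that patterns the embryo, had 31, 53 and 30 against 1, 3 and 4 (-3.23). Outside the list, cyb-3, for cyclin B3, had 36, 73 and 29 against 7, 0 and 5 (-2.93). In these 4 genes the lowest oogenic level lay above the highest spermatogenic level, which was a condition of the rule that named them. The calls of pos-1 and cyb-3 were lost when all libraries were thinned to the shallowest. perm-4 and perm-2, needed for the permeability barrier of the eggshell, were not called and had positive differences of 0.46 and 0.22. For perm-4 the counts were 101, 186 and 104 in oogenic and 141, 76 and 143 in spermatogenic controls, so the list did not move as a block. These 2 genes together had a level of 3317 to 4057 in spermatogenic controls, more than the rest of the list, and without them the list's sums were 11113 to 11664 and 2432 to 3051, a ratio of 0.233.

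**Figure D3:**
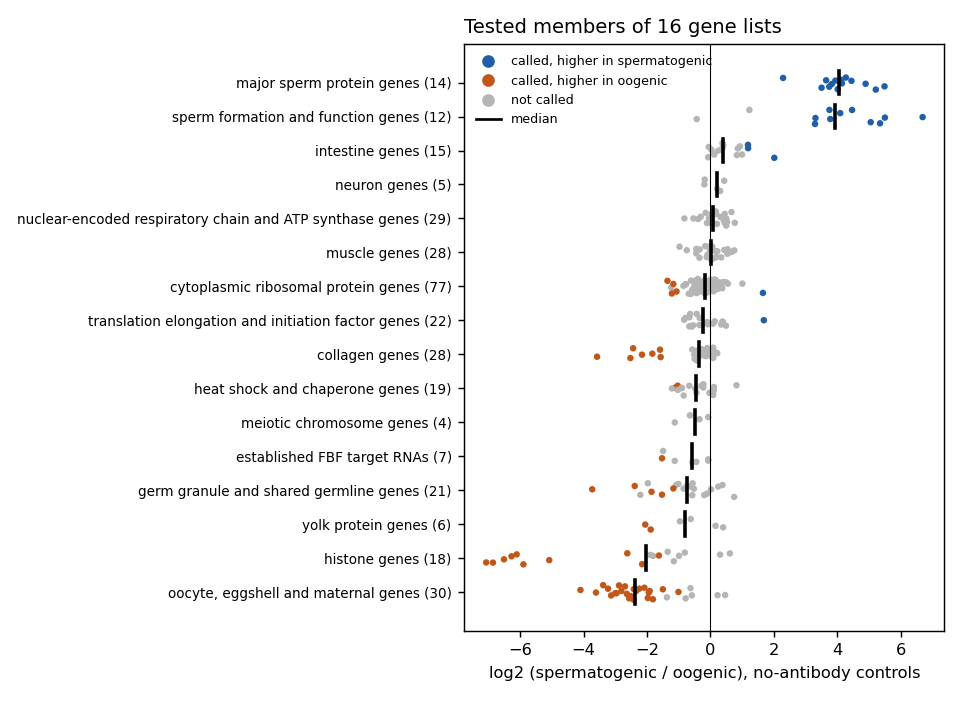
Log2 differences between spermatogenic and oogenic controls for the tested members of each gene list, with 1 point for each gene, color for calls and a bar at the list's median. MSP genes (median 4.07) and sperm genes (3.94) lie to the spermatogenic side, oocyte genes (-2.38) and histone genes (-2.03) to the oogenic side, and muscle genes center on 0.01.

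A list of germ granule and other shared germline genes was also lower in spermatogenic controls by its sum. Its 28 genes had summed levels of 8622 to 8797 in oogenic and 4199 to 4678 in spermatogenic controls. Of 21 that passed the minimum 5 fell (cgh-1, wago-4, gld-1, ifet-1 and nasp-2) and none rose, with a median of -0.74. Among all protein-coding genes tested 4.01% fell. cgh-1, a DEAD-box helicase that protects stored germline mRNAs (chromosome III, 7495320 to 7497832 in WBcel235), had 128, 243 and 106 counts in oogenic and 30, 11 and 49 in spermatogenic controls (log2 difference -1.86). gld-1 encodes a translational repressor needed for oocyte development and is among the established FBF targets. It had 57, 83 and 50 counts in oogenic and 15, 4 and 27 in spermatogenic controls (-1.53), without overlap, and lost its call after thinning. gld-1 was the only called gene among the 7 established FBF targets tested of 15 listed, where 8.79% of all protein-coding genes tested were called. lip-1, a phosphatase gene that limits MAP kinase signaling in the germline, was at -1.50 and did not pass the threshold (adjusted p = 0.036 by edgeR quasi-likelihood, Benjamini-Hochberg adjusted). mpk-1, the MAP kinase gene, and egl-4, a protein kinase G gene, were at -0.45 and -0.07. The 41 meiotic chromosome genes had overlapping summed levels of 1644 to 1862 in oogenic and 1514 to 1731 in spermatogenic controls. Of the 4 with enough counts to test none was called by edgeR or DESeq2 or had an unadjusted p under 0.05.

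Histone RNA was also lower in spermatogenic controls. The 79 histone genes had summed levels of 5511 to 6145 in oogenic and 1239 to 1422 in spermatogenic controls. Of 18 that passed the minimum, 10 fell and none rose (median -2.03), where 4.01% of all protein-coding genes tested fell. Among the 18, 5 were at 0 in all spermatogenic controls and passed the minimum only through their oogenic counts. Of the 79, 51 had no count in any spermatogenic control against 9 in oogenic controls. The part of the greater depth of the oogenic controls in these zeros was not tested. his-45 had 30, 55 and 29 counts in oogenic and 0, 0 and 1 in spermatogenic controls (log2 difference -5.90). his-62 had 22, 37 and 19 against 6, 3 and 8 (-1.63), a call lost after thinning and in DESeq2 (adjusted p = 0.016). Replication-dependent histone genes occur in near-identical copies, so values of single copies are uncertain. The family sum is open to the same doubt where copies were at 0 in spermatogenic controls, as were his-56 and his-65, which had 15 to 77 counts in each spermatogenic FBF library. With the genes at 0 in all spermatogenic controls left out, the sums were 3253 to 3608 in oogenic and 1239 to 1422 in spermatogenic controls, a ratio of 0.395 instead of 0.232. The genes for the replacement histone H3.3, his-71 and his-72, were at 0.61 and -1.0 and were not called.

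Somatic gene lists differed in how many members were called, where 8.79% of all protein-coding genes tested were called and 4.78% rose. In the muscle list none of 28 genes tested was called by edgeR or DESeq2, with a median of 0.01 and summed levels of 48731 to 49865 in oogenic and 47336 to 48307 in spermatogenic controls. At an unadjusted p under 0.05 in edgeR, 6 muscle genes were higher in spermatogenic and 3 in oogenic controls. Of these, the actin gene act-1 (-0.98, adjusted p = 2.5e-06), unc-52 (-0.75, adjusted p = 0.0044) and the myosin light chain gene mlc-2 (0.60, adjusted p = 0.0089, edgeR) passed the p threshold and missed only the 2-fold limit. unc-15, the paramyosin gene, was at 0.05 and lev-11, a tropomyosin gene, at 0.44. Scaling by total counts moved the muscle median to 0.28. Neuronal genes were sparse, with 5 of 25 tested and none called by either tool or below an unadjusted p of 0.05. For the intestine, 3 of 15 genes tested rose (cpr-1, fat-5 and spp-5) and none fell (1 rose in DESeq2), and the summed level of the 29 listed genes went from 4834 to 5367 in oogenic to 6591 to 7802 in spermatogenic controls.

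Yolk protein genes, expressed in the intestine, were lower in spermatogenic controls by their summed level and differed among themselves. Their summed level was 38237 to 39102 in oogenic and 29866 to 32699 in spermatogenic controls. Of all counts on genes they held 8994 of 564274 in oogenic and 4939 of 314134 in spermatogenic controls. The difference in the sum thus depends on the scaling. Their median of -0.79 became -0.52 by total counts, where the same number fell. Of the 6, 2 fell, where 4.01% of all protein-coding genes tested did so. vit-3 (chromosome X, 3567355 to 3572549 in WBcel235) had 311, 656 and 286 counts in oogenic and 60, 45 and 93 in spermatogenic controls (log2 difference -2.06). vit-4 had 222, 493 and 248 against 50, 47 and 73 (-1.89). vit-5, close to both in sequence, had 360, 674 and 330 against 169, 85 and 223 (-0.96, adjusted p = 2e-07 by edgeR quasi-likelihood, Benjamini-Hochberg adjusted, short of the 2-fold limit), and the division of reads among these 3 copies is uncertain. vit-6 had 608, 1187 and 571 against 747, 406 and 933, a difference of 0.40 in the other direction that was not called (adjusted p = 0.015 by edgeR quasi-likelihood, Benjamini-Hochberg adjusted). vit-2 was at 0.16. vit-1 was at -0.62 (adjusted p = 0.00076, edgeR), also short of the 2-fold limit. No yolk gene rose past the threshold.

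Collagen RNA was lower in spermatogenic controls by its summed level and in part of its genes. Among all protein-coding genes tested 4.78% rose and 4.01% fell, the shares to set beside the calls of the lists that follow. The summed level of the 170 listed genes was 52833 to 59412 in oogenic and 38446 to 47713 in spermatogenic controls. Of all counts on genes the list held 12686 of 564274 in oogenic and 7146 of 314134 in spermatogenic controls. The difference in the sum thus depends on the scaling. By total counts the median of the collagen genes tested was -0.07 and 7 still fell. Of 28 collagen genes tested among 170 listed, 7 fell and none rose (median -0.35), and 94 of the 170 had no count in any spermatogenic control against 53 in oogenic controls. The oogenic controls together held 564274 counts on genes and the spermatogenic controls 314134, and the part of this difference in depth in the zeros was not tested. col-94 had 35, 64 and 44 counts in oogenic and 1, 1 and 6 in spermatogenic controls (log2 difference -3.58), but it overlaps dhc-4 and its reads may belong to either. Ribosomal protein genes had 1 call higher (rpl-39) and 4 lower in spermatogenic controls (rps-6, rla-0, rpl-2 and rpl-7A) of 77 tested (1 and 1 in DESeq2), and their median of -0.17 became 0.11 when libraries were scaled by total counts. rpl-3 was at -0.85 and not called. Translation factors had 1 call in 22, ife-1, which rose but was not called by DESeq2, and their median of -0.25 became 0.03 by total counts. No respiratory chain gene of the nucleus was called by edgeR or DESeq2 among 29 tested (median 0.09), although 4 were higher in spermatogenic controls at an unadjusted p under 0.05, with the ATP synthase gene atp-2 at 0.05. Of 19 heat shock genes tested, hsp-3 and hsp-60 fell, and neither was called by DESeq2.

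The more abundant genes that rose in spermatogenic controls included cpl-1, F26F12.3, fat-2, F23D12.11 and cpr-1. cpl-1, a cathepsin L protease gene, had 51, 118 and 60 counts in oogenic and 117, 69 and 133 in spermatogenic controls (log2 difference 1.07, SE 0.18). Without spermatogenic replicate 2 its difference was 0.99, below the 2-fold limit. fat-2, a fatty acid desaturase gene, had 27, 49 and 18 against 57, 30 and 59 (1.22), and fat-5, another desaturase (chosen after its values were seen), had 5, 9 and 13 against 24, 19 and 32 (2.01). F26F12.3 had 25, 52 and 14 against 70, 34 and 55 (1.42). F23D12.11, which overlaps fipr-3, had 13, 28 and 14 against 25, 23 and 55 (1.46). The calls of fat-2, fat-5 and F23D12.11 were lost after thinning. cpr-1, a cathepsin B-like protease gene, had 16, 32 and 19 against 56, 13 and 35 (1.19), and its call rested on single libraries: it was 0.68 without spermatogenic replicate 1 and 1.14 without oogenic replicate 2 (adjusted p = 0.022 by edgeR quasi-likelihood, Benjamini-Hochberg adjusted), and DESeq2 gave an adjusted p of 0.018. The aspartyl protease gene asp-1 was at 0.40 and the poly(A) binding protein gene pab-2 at 0.49, and neither was called.

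Among the abundant genes that fell, several belonged to no list. K08D12.6 had 261, 570 and 261 counts in oogenic and 123, 47 and 157 in spermatogenic controls (log2 difference -1.19), and was at -0.91 when scaled by total counts. anc-1, which encodes a giant protein that anchors nuclei, had 133, 288 and 147 against 69, 20 and 61 (-1.36), a call lost after thinning. gfi-1 (chromosome V, 6392537 to 6399931 in WBcel235) had 73, 115 and 62 against 11, 2 and 9 (-2.95). The protein disulfide isomerase gene pdi-2 had 78, 119 and 54 against 36, 10 and 37 (-1.06) and was close to the 2-fold limit: it was at -0.93 without oogenic replicate 1, at -0.93 without spermatogenic replicate 2 and at -0.78 by total counts, and its call was lost after thinning. gfi-1 showed the widest separation of these 4.

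**Figure D4:**
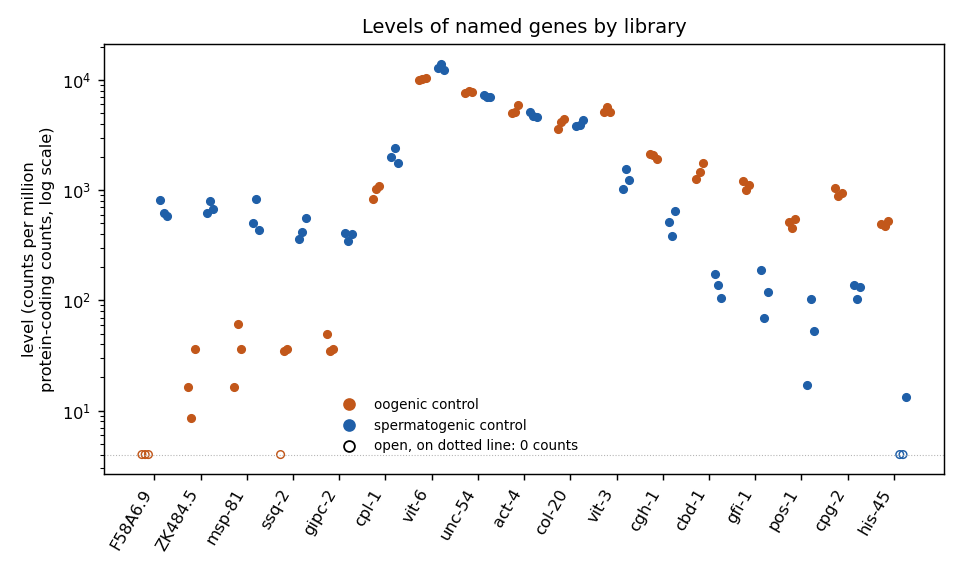
Level (CPM of protein-coding counts, logarithmic axis) of named genes in each control library, with 1 point for each library and color for gender. Open points mark libraries with 0 counts. F58A6.9 is at 0 in the 3 oogenic controls, cbd-1 and cgh-1 are lower in all 3 spermatogenic controls, and act-4 overlaps between genders.

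The FBF libraries of the same 2 genders, which share no library with the controls, allowed the control differences to be read beside those obtained with antibody. The FBF libraries of each gender were summed over FBF-1 and FBF-2 into 3 replicates, and the difference between the control and FBF log2 ratios (spermatogenic over oogenic) was tested as an interaction. The lanes differ here too, since the spermatogenic FBF libraries were in lane 1 and the oogenic ones in lane 2. Of 2970 genes tested, 138 had a different ratio (4.65%), 78 with a higher and 60 with a lower control ratio. Of the 131 protein-coding genes higher in spermatogenic controls, 112 had an FBF ratio of the same sign, 92 passed the same threshold in FBF and none did so in the opposite direction, and 17 were past the interaction threshold. Of the 110 genes higher in oogenic controls, these numbers were 89, 45, 0 and 31. Among all 2743 protein-coding genes 82 were past it (2.99%). Since the called genes were chosen on control counts that also enter the interaction, its direction in them is not independent of that choice and these counts are a description. The median control and FBF differences were 4.12 and 4.30 for spermatogenic-higher genes and -2.45 and -0.87 for oogenic-higher genes that could be compared. All 14 MSP genes and all 10 called sperm genes passed the threshold in FBF as well, and none differed by interaction. Among the 24 called oocyte genes, 21 passed it in FBF and 2 differed by interaction.

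Differences without antibody were in some groups not matched with antibody. The 7 called collagen genes had FBF ratios between 0.40 and 0.88, opposite in sign to those of the controls, and all 7 were past the interaction threshold. Of the 10 called histone genes 7 were past it, with FBF ratios of the 10 between -1.0 and -0.48. Both called yolk genes also differed, vit-3 by -1.57 and vit-4 by -1.36 on the log2 scale (control minus FBF). Among genes higher in spermatogenic controls, fat-5 had a control difference of 2.01 and an FBF difference of 0.03, and differed by interaction. For all 48 called protein-coding genes that differed by interaction (17 and 31), the control difference and the FBF difference are set side by side in the plot of both ratios.

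**Figure D5:**
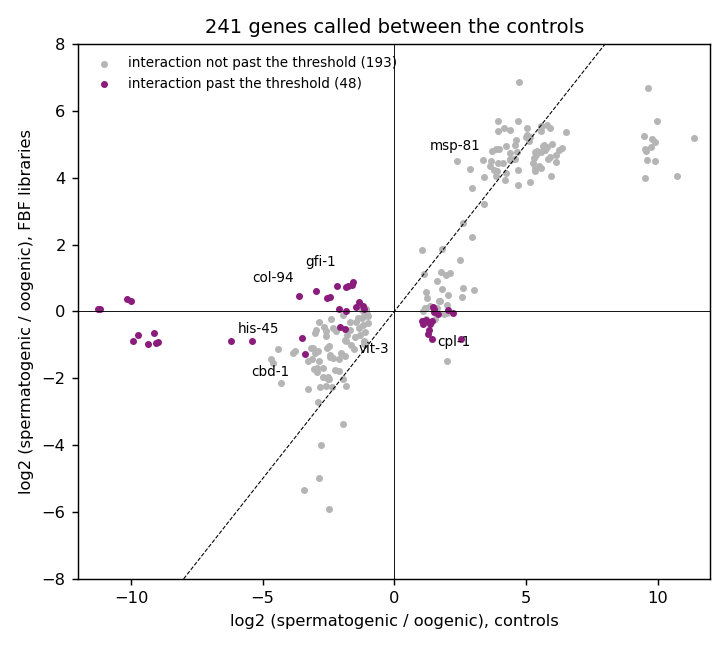
Log2 ratio of spermatogenic over oogenic in the FBF libraries (vertical axis) against the same ratio in the no-antibody controls (horizontal axis), with 1 point for each of the 241 protein-coding genes called between the controls and the 48 that differ by interaction in color. Points beyond about 9 on either side of the horizontal axis are genes at 0 in the controls of a gender, and most of the 48 lie near 0 on the vertical axis.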

How the data were processed

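From 18 libraries, 6 were taken as no-antibody controls from their labels, and the 12 FBF libraries were used only beside them. Per the labels and methods of the study, cross-linked animals were lysed by ball milling and libraries were sequenced single-end. The authors deposited raw counts per gene: reads were mapped with STAR in local mode, multi-mapping reads and those with a score under 20 were removed, duplicates were collapsed by barcode, and HTSeq assigned reads to exons (Novoalign is also named in the submitters' notes). Genome build, annotation, strand setting and versions are not given in the sources used here. Library sizes and tests did not include no-feature reads (14.1 to 20.2% of a control) or ambiguous reads. Gene classes were looked up by name in Ensembl release 115 and RefSeq for 26335 of 26709 genes, and 374 stayed unmatched.

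A mean of 5 or more counts over the controls was required, and genes were tested with edgeR 4.0.16 (quasi-likelihood, robust, TMM, limma 3.58.1, R 4.3.3) over all classes, with the Benjamini-Hochberg adjustment, and called where p was below 0.01 and the change above 2-fold. The interaction test left out rRNA, tRNA and mitochondrial genes and had no fold minimum. DESeq2 1.42.0 was an alternative. Class shares were compared by exact two-sided permutation in Python 3.11.15. The test was run on simulated data. Of 200 genes changed by a log2 fold of 2 in the control comparison (3151 genes), 87.5% were recovered with 1 false call. For the interaction (2970 genes) 77.8% of 185 were recovered with 1 false call. Whether these rates hold for the control libraries, where calls moved with scaling and test tool, was not tested.

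Genes were named by rule: in each direction the 8 called genes without overlap of highest level and the 6 of largest change with at least 6 counts in the lower group, the 8 most abundant of each gender, the 4 most abundant of each list and noncoding class, and the 4 highest per direction of genes at 0 in a gender. The lists, and exceptions named in the text, were chosen with earlier results of these data known. Alternatives changed scaling, count minimum, fold limit, depth, test tool and replicates. No sequences were printed.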

Additional observations from a re-analysis of the deposited data

Results flagged for a closer look

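A number of named genes had a gender ratio in the no-antibody controls that differed from that in the FBF libraries (interaction of antibody and gender, adjusted p under 0.01 by edgeR quasi-likelihood, Benjamini-Hochberg adjusted). Values are the control log2 ratio of spermatogenic over oogenic minus the FBF log2 ratio. Lanes also differ between these groups, and their part was not tested. Of all 2970 genes in the interaction test, 138 were past the threshold (4.65%). Many of the genes below were named for calls on the same control counts that enter the interaction, so their values are a description.

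The control ratio was higher than the FBF ratio for the snoRNAs C08D8.3 (1.96) and F47G4.9 (1.96), for M163.13 (1.47), and for the protein-coding genes cpl-1 (1.37), F26F12.3 (1.71), F23D12.11 (1.33) and fat-5 (2.01). Smaller values were found for perm-4 (1.23), perm-2 (1.05), pab-2 (1.04) and osm-11 (1.01), which were not called between the controls. anr-54, which overlaps vhp-1, had 0 counts in oogenic controls, 34, 17 and 40 in spermatogenic controls (at least 43.2-fold higher) and 0 to 4 in the deeper spermatogenic FBF libraries. Its fitted value of 11.04 rests on the 0 counts and is no bound.

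The control ratio was lower for the yolk genes vit-3 (-1.57) and vit-4 (-1.36), K08D12.6 (-1.34), anc-1 (-1.64), rpl-3 (-1.19), the eggshell gene cbd-1 (-2.12), gfi-1 (-3.57) and col-94 (-4.07). It was also lower for the noncoding RNA F26H11.9 (-3.31), whose FBF ratio was -0.04, and for the histone gene his-45 (-5.34). The fitted values of pud-1.2 (-11.35) and pud-2.2 (-11.24) rest on 0 counts in spermatogenic controls and are no bounds.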

How the results depend on the processing

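Protein-coding calls (131 higher in spermatogenic and 110 higher in oogenic controls) moved most with depth and the count minimum. Spermatogenic calls were 315 with no minimum, 13 at a mean of 20 counts and 20 with libraries thinned to 59621 counts. Oogenic calls were 38 at a mean of 20 counts, 18 after thinning, 59 in DESeq2 and 68 at a log2 change over 2. All calls (408) became 632 with no minimum, 154 at a mean of 20 and 133 after thinning. These settings change which genes are tested or the counts behind each gene. Leaving out each library in turn gave 103 to 131 spermatogenic, 75 to 112 oogenic and 334 to 403 calls in all, and 103 to 123 genes for the interaction. Class differences in percentage points were -20.5 to -18.2 for rRNA, 0.532 to 2.00 for tRNA (-0.907 without F56F4.t2, chosen after seeing the data), 5.70 to 6.31 for mitochondrial and 9.01 to 11.5 for protein-coding RNA. With genes at 0 in a gender left out (chosen after seeing the data for the calls, which were 118 and 92), rRNA was at -10.1 and protein-coding RNA at 1.60. With unassigned reads in the denominator, mitochondrial RNA was at 4.67 and protein-coding RNA at 6.48.

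Genes near 0 changed sign: act-4 (0.18 by total counts, 0.10 thinned), unc-54 (0.19 by total counts), egl-4 (0.21 by total counts, -0.16 to 0.11 without single libraries), atp-2 (-0.0649 with no minimum), col-20 (-0.0804 with no minimum, -0.0284 to 0.11 without single libraries), unc-15 (-0.0592 with no minimum, -0.0298 thinned, -0.0130 to 0.12 without single libraries) and mpk-1 (-0.70 to 0.15 without single libraries). None of these was called. Same-numbered controls did not deviate together (correlations 0.008, -0.022 and -0.024). Values near 0 cannot show that the libraries were not prepared in pairs. With the replicate block 118 and 98 protein-coding genes were called, and no call of a named gene changed. No block was fitted for the shares or the interaction. In DESeq2 101 spermatogenic genes were called. Genes with few counts are limited by depth, since 3 counts stand for a level of up to 104.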
